A study of Mus musculus with 6 samples.

Results

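The integrated stress response and the unfolded protein response were examined through 41 named genes in RNA-seq of C2C12 cells, an established line of mouse myoblasts. The genes were named by symbol, and earlier results of these data were known when they were chosen. The 41 genes were sorted by role into an ATF4 programme of 18, a list of 12 endoplasmic reticulum (ER) chaperones and folding enzymes, a list of 4 with the stress sensors and Xbp1, and 7 genes of ER-associated degradation. All 41 were among the 23154 gene IDs of the deposited tables, and 39 were among the 12509 genes with enough reads to be tested. The cells were stable C2C12 lines, 1 carrying pINDUCER20b-HA-NUR77 and 1 carrying pINDUCER20b-GFP, so that a doxycycline-controlled construct makes either HA-tagged NUR77, an orphan nuclear receptor, or green fluorescent protein as the control. Both lines received doxycycline at 1 µg/mL, 24 hours after seeding, and were lysed 18 hours later, with 3 libraries per line and 1 dish per library. No library without doxycycline was analysed here, so a response shared by both lines is not measured, and with 1 line per construct a difference between the lines cannot be told apart from an effect of the construct.

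Cells slow protein synthesis and change their transcription when amino acids run short, when unfolded proteins gather in the ER or when other stresses reach one of the kinases that phosphorylate the translation factor eIF2. Phosphorylated eIF2 lowers general translation while that of the transcription factor ATF4 rises, and ATF4 activates genes of amino acid synthesis, amino acid uptake and tRNA charging together with the factor CHOP (Ddit3), which is linked to cell death under lasting stress. Unfolded proteins in the ER are sensed by PERK (Eif2ak3), which is an eIF2 kinase, by IRE1 (Ern1), which splices the mRNA of Xbp1, and by ATF6, which is cut to release a transcription factor. XBP1 and ATF6 activate chaperones of the ER and the machinery that carries misfolded proteins out for degradation. In myoblasts both arms are known to be engaged during differentiation. The amount of ATF4 protein, eIF2 phosphorylation, Xbp1 splicing and ATF6 cleavage are not read by gene counts, so the measurements here are of transcript level only.

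Totals ran from 13906096 to 22821446 counts per library. Mouse Nr4a1, which encodes NUR77, had 355 to 445 reads in the HA-NUR77 libraries and 196 to 417 in the GFP libraries and did not pass the test (log2 fold change 0.14, SE 0.24, edgeR adjusted p = 0.698). The labels do not say from which species the insert came, so this gene does not check the labels, and the groups below are those of the labels. The muscle markers were present, with a summed level of 6 myoblast markers of 3823 to 4498 CPM (reads per 1000000 counted, after scaling between libraries) in HA-NUR77 and 2635 to 3477 CPM in GFP. The 10 myotube markers summed to 14744 to 17913 CPM in HA-NUR77 and 9919 to 14489 CPM in GFP, with 3 of them higher and 1 lower. Markers of macrophages, adipocytes and endothelium summed to at most 7.03, 5.46 and 1.3 CPM per library, and Adipoq, Plin1 and Cidec had no read. Among them, Csf1r (mean 1.35 against 0.426 CPM) and Pparg (4.2 against 2.43 CPM) were higher in HA-NUR77. Their edgeR adjusted p was 0.0443 and 0.0362, and they passed in 2 and 1 of the 6 fits without 1 library. Over all genes tested, 25.6% were called at an adjusted p under 0.05, 12.4% higher and 13.2% lower in HA-NUR77, and 45.6% had no overlap between the groups.

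Asns, Psat1 and Shmt2, enzymes of asparagine, serine and glycine synthesis, and the tRNA synthetases Gars and Wars were higher in the HA-NUR77 libraries, and the stress gene Nupr1 was lower. Atf4 itself and Ddit3 did not pass the test. Of the 17 members of the ATF4 programme tested, 5 rose, 1 fell and 11 did not pass. The share that rose was 29.4% and the share that fell 5.88%, against 12.4% and 13.2% of all genes. The median log2 fold change of the list was 0.32, against 0.01 for all genes tested, and ran from −0.81 for Nupr1 to 0.83 for Asns. The summed myoblast markers and the summed myotube markers given above were both also higher. Of the 6 myoblast markers 1 rose and 5 did not pass. Of the 10 myotube markers 3 rose, 6 did not pass and 1, Myh1, fell. The part of either marker list in these values was not tested. In a bulk library, fewer cells with a transcript and less of it per cell cannot be told apart. Counts with the replicate number as a block are given as well, because libraries with the same number deviated together: with the block, 10 members of the list were higher and 3 lower, against 23.5% higher and 24.6% lower over all genes.

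**Figure D1:**
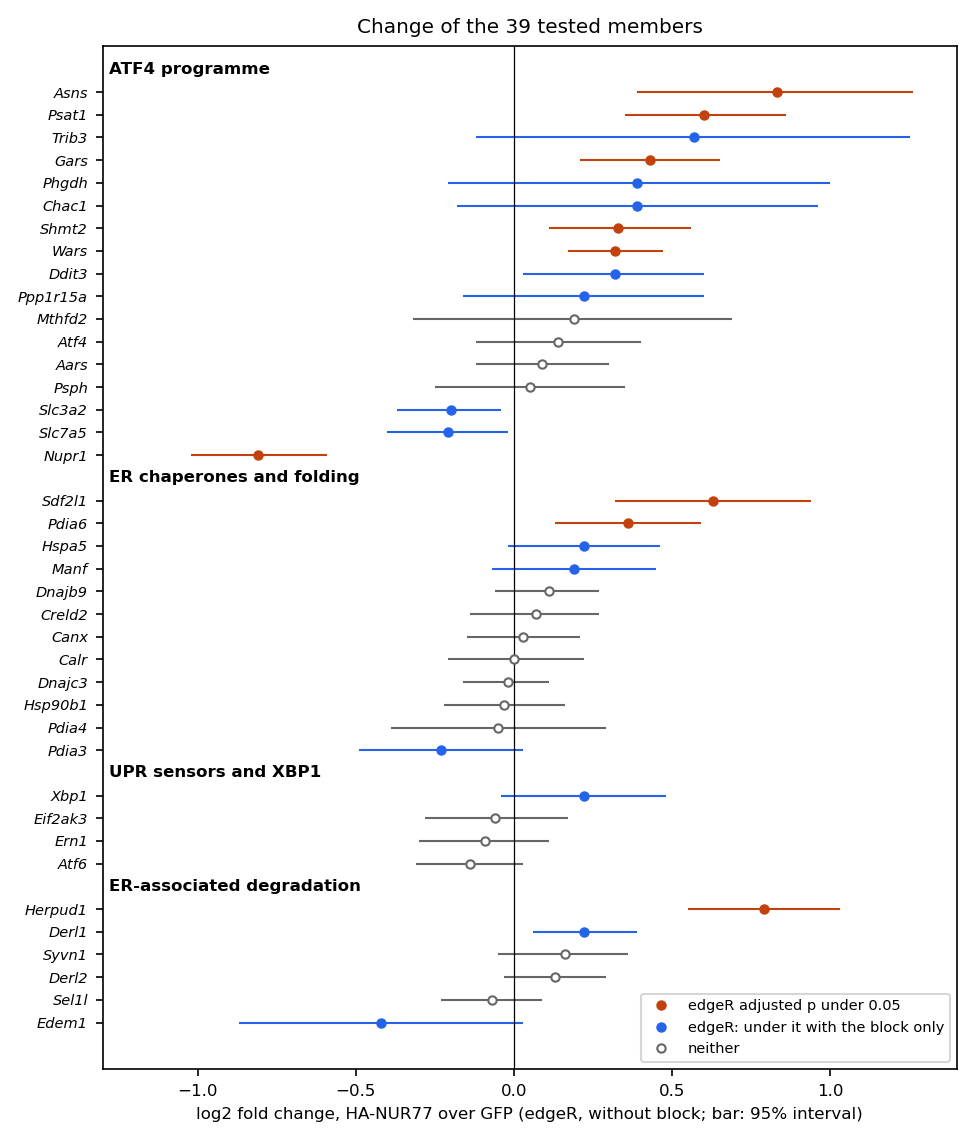
Log2 fold change of each of the 39 tested members (x axis, HA-NUR77 over GFP, edgeR without the block, bars of 95%), grouped by list. Filled orange points mark the 9 members past the threshold, blue points the 13 that edgeR called with the replicate block and not without it, and open points the rest; Asns at 0.83, Herpud1 at 0.79 and Nupr1 at −0.81 lie furthest from 0.

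ATF4 acts with C/EBP partners on a short element, searched here as TGATGNAAN on both strands of the RefSeq promoter windows, which hold 250 bases before and 50 after each annotated start (GRCm38.p6, the assembly that mm10 denotes). Of the 36 members with a window, 8 held a match: Aars, Asns, Chac1, Gars, Nupr1, Trib3, Vldlr and Herpud1. Over all 32851 windows the share with a match was 3.95%. Here and below, members are counted by gene (39 windows for the 36 genes) and the share by window. Of these 8, 3 rose, 1 fell, 3 did not pass and Vldlr was not tested. The stretches of 150 bases before the start are printed for 2 of the 3 that rose and for the 1 that fell, from 5′ to 3′ on the strand of the gene, with the match in capitals.
Asns promoter, chr6:7693210-7693359, minus strand: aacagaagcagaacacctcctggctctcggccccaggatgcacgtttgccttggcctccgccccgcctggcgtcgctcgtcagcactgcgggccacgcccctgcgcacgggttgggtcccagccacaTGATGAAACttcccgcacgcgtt
Gars promoter, chr6:55037851-55038000, plus strand: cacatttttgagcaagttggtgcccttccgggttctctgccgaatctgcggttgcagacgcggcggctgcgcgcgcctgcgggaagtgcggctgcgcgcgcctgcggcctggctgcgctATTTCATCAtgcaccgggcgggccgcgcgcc
Nupr1 promoter, chr7:126625471-126625620, minus strand: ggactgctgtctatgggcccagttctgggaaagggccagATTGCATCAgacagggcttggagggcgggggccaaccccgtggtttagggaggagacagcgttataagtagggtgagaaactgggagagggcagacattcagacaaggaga
The match begins 23 bases before the start in Asns, 31 in Gars and 111 in Nupr1. It reads TGATGAAAC in Asns, and on the opposite strand in the other two. RefSeq and GENCODE place some of these starts differently, so the distances hold for the RefSeq start only. A match is a description of letters and not a measured site of binding.

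**Figure D2:**
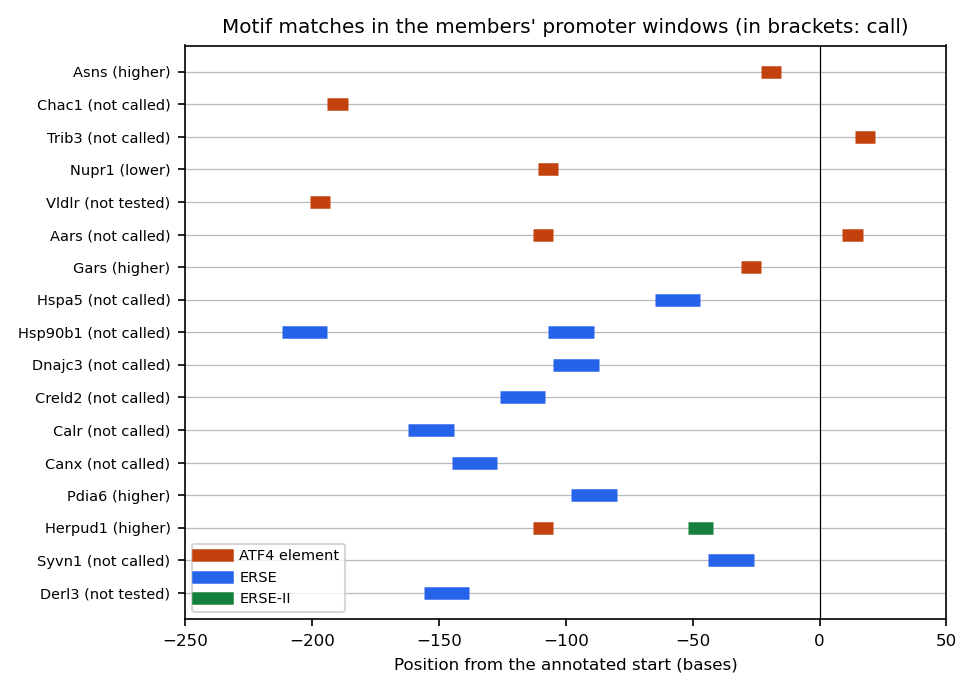
Position of each motif match from the annotated start (x axis, bases) in the promoter window of the 17 members that hold one; grey lines span the window and the call of the gene is in brackets. Matches to the ATF4 element (orange) and to the ER stress element ERSE (blue) fall in different members, and Herpud1 holds an ATF4 element and an ERSE-II (green).

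Asns (chromosome 6, 7675169 to 7693254, minus strand), asparagine synthetase, stood at 59.1, 71.3 and 61.5 CPM in the HA-NUR77 libraries (replicates 1, 2 and 3, in that order throughout) and at 28.7, 47.9 and 31.8 CPM in those of GFP. All HA-NUR77 libraries lay above all GFP libraries, and replicate 2 was the highest in both groups. The rise was 1.77-fold (log2 fold change 0.83, SE 0.19, edgeR adjusted p = 0.0183), and without GFP replicate 1, the lowest library, the log2 fold change was 0.68 with an edgeR adjusted p of 0.0631. Psat1 (chromosome 19, 15904678 to 15947337, minus strand), the aminotransferase of serine synthesis, stood at 140, 154 and 135 CPM in the HA-NUR77 libraries and at 84.8, 110 and 88.5 CPM in those of GFP. Its groups did not overlap, and the rise was 1.52-fold (log2 fold change 0.60, SE 0.11, edgeR adjusted p = 0.00817). It passed in each fit without 1 library, with adjusted p up to 0.0361 (edgeR).

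Of the other 4 enzymes of the serine and one-carbon route, Shmt2 rose and 3 did not pass by edgeR on the 6 libraries without the block. Shmt2 (chromosome 10, 127517123 to 127522444, minus strand), which makes glycine and a one-carbon unit from serine in mitochondria, stood at 72.3, 78.3 and 72.5 CPM in HA-NUR77 against 52, 66 and 59.1 CPM in GFP. The groups did not overlap and the rise was 1.26-fold (log2 fold change 0.33, SE 0.10, edgeR adjusted p = 0.0376), but it passed in only 1 of the 6 fits without 1 library, that without GFP replicate 2, and the other 5 gave adjusted p of 0.0611 to 0.108. Phgdh, the dehydrogenase at the start of serine synthesis, stood at 33.2, 51.7 and 32.4 CPM in HA-NUR77 against 31.3, 38.1 and 20.2 CPM in GFP. Its groups overlapped, its log2 fold change of 0.39 (SE 0.26) had an edgeR adjusted p of 0.289, and it passed with the block (adjusted p = 0.0104). Within numbers, the HA-NUR77 library was above the GFP library by 0.08, 0.44 and 0.68 on the log2 scale. Psph, the phosphatase that ends the route, stood at 9.58 ± 0.993 against 9.3 ± 0.9 CPM (SD, n = 3) and passed in neither fit (95% interval of the fold change 0.841 to 1.27). Its exons overlap those of Cct6a on the opposite strand by 452 bases, and the strand setting of the counting is not given. The count of Psph is thus uncertain. Mthfd2, a mitochondrial one-carbon dehydrogenase, stood at 27.4, 35 and 32 CPM in HA-NUR77 against 21.2, 38.2 and 23.6 CPM in GFP, with GFP replicate 2 the highest of the 6. Its edgeR adjusted p was 0.544, and 0.0468 without GFP replicate 2, where the log2 fold change was 0.49 in place of 0.19.

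Of the tRNA synthetases among the members, Gars and Wars rose and Aars did not pass, where 12.4% of all genes were called higher. Gars (chromosome 6, 55038007 to 55079500, plus strand), which charges glycine, stood at 254, 263 and 286 CPM in HA-NUR77 against 175, 205 and 215 CPM in GFP, a rise of 1.35-fold (log2 fold change 0.43, SE 0.10, edgeR adjusted p = 0.0164). Wars (chromosome 12, 108860030 to 108894174, minus strand), which charges tryptophan, stood at 58.9, 61.6 and 58.1 CPM in HA-NUR77 against 46.5, 49 and 47.5 CPM in GFP, a rise of 1.25-fold (log2 fold change 0.32, SE 0.06, edgeR adjusted p = 0.0112). For both, every HA-NUR77 library was above every GFP library, and both passed in each fit without 1 library, with adjusted p up to 0.0478 and 0.048. Aars, which charges alanine, stood at 226 ± 14.7 against 213 ± 21.1 CPM (SD, n = 3) and did not pass (edgeR adjusted p = 0.494, 0.178 with the block). Its promoter window holds 2 matches to the ATF4 element. Some of its annotated exon sequence, 14.3%, is shared with Exosc6, so its count is uncertain.

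**Figure D3:**
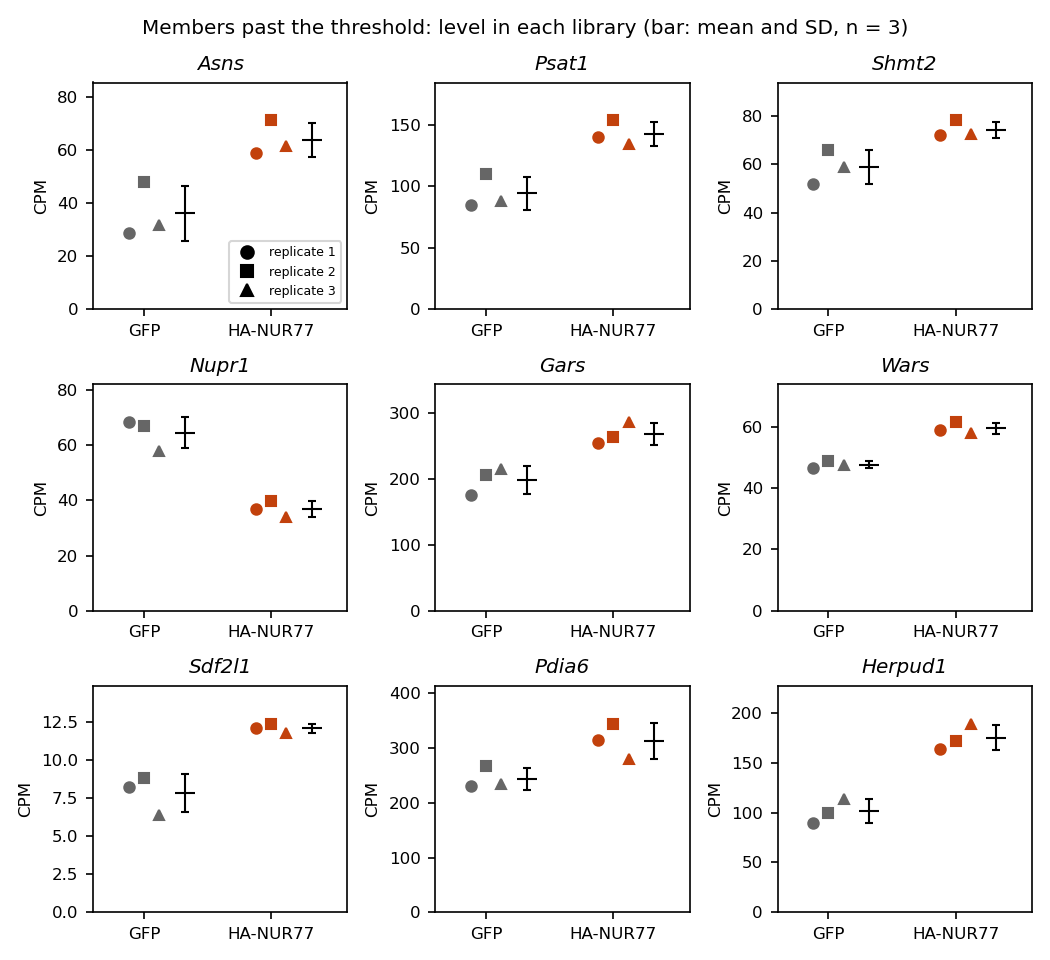
Level of each of the 9 members past the threshold in every library (y axis, CPM, from 0); grey symbols are GFP, orange HA-NUR77, the symbol gives the replicate number, and the bar is the mean and SD of 3. In each panel the groups do not overlap, with Nupr1 the only member lower in HA-NUR77.

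Nupr1 (chromosome 7, 126623249 to 126630861, minus strand), a small chromatin protein induced by stress, was the only member that fell. It stood at 37, 39.7 and 33.9 CPM in the HA-NUR77 libraries and at 68.5, 67.2 and 58.1 CPM in those of GFP. The GFP libraries were all above the HA-NUR77 libraries, and the fall was 1.75-fold (log2 fold change −0.81, SE 0.09, edgeR adjusted p = 0.00144). Within numbers the differences were −0.89, −0.76 and −0.78 on the log2 scale, and the call was kept in every fit without 1 library, with edgeR adjusted p of 0.00203 to 0.0108. The adjusted p over all 15 alternatives ran from 2.39e-10 to 0.0108.

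Atf4 and Ddit3, the transcription factors of the list, did not pass without the block. Atf4 (chromosome 15, 80255184 to 80257541, plus strand) stood at 195, 247 and 200 CPM in the HA-NUR77 libraries and at 178, 213 and 192 CPM in those of GFP. The groups overlapped, with replicate 2 the highest in both, and the log2 fold change was 0.14 (95% interval −0.12 to 0.40, edgeR adjusted p = 0.373, 0.057 with the block). Ddit3 (chromosome 10, 127290774 to 127296288, plus strand), which encodes CHOP, stood at 12.7, 15.5 and 15.4 CPM in the HA-NUR77 libraries and at 13, 10.7 and 11.3 CPM in those of GFP. Replicate 1 of HA-NUR77 lay below replicate 1 of GFP, while numbers 2 and 3 differed by 0.53 and 0.45 on the log2 scale. The log2 fold change was 0.32 (SE 0.12, edgeR adjusted p = 0.0946, 0.0463 with the block). Exons of Ddit3 and Mars overlap on opposite strands by 68 bases, and the strand setting of the counting is not given, so a few reads may be shared.

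Trib3, a pseudokinase that restrains ATF4 and AKT, stood at 3.52, 5.59 and 3.73 CPM in HA-NUR77 against 1.9, 3.78 and 3.11 CPM in GFP, from 32 to 128 reads per library. Chac1, which degrades glutathione, stood at 9, 11.7 and 8.4 CPM in HA-NUR77 against 4.92, 9.34 and 8.12 CPM in GFP, and GFP replicate 1 was the lowest library for both. Ppp1r15a (GADD34), which recruits the phosphatase that reverses eIF2 phosphorylation, stood at 26.7, 35 and 26.6 CPM in HA-NUR77 against 21.1, 30.7 and 24.3 CPM in GFP. Each overlapped between the groups, and in each the HA-NUR77 library was above the GFP library of the same number in 3 of 3 pairs. The same sign in all 3 pairs was seen in 29 of the 39 tested members, and its share over all genes was not computed. For Trib3, Chac1 and Ppp1r15a the log2 fold changes were 0.57 (SE 0.29), 0.39 (SE 0.24) and 0.22 (SE 0.16). EdgeR adjusted p was 0.189, 0.263 and 0.352, and 0.0209, 0.0414 and 0.0302 with the block.

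The pair of chains that form the large neutral amino acid transporter did not rise. Slc7a5, the transporting chain, stood at 88.8, 100 and 93.7 CPM in HA-NUR77 against 102, 118 and 108 CPM in GFP. Slc3a2, its glycoprotein partner, stood at 99, 99.5 and 101 CPM in HA-NUR77 against 109, 124 and 112 CPM in GFP. Neither overlapped between the groups, all GFP libraries being above all HA-NUR77 libraries. The log2 fold changes were −0.21 (SE 0.08) and −0.20 (SE 0.07), with edgeR adjusted p of 0.09 and 0.0661, and 0.00618 and 0.0119 with the block. Slc3a2 also passed without the block by DESeq2 (adjusted p = 0.0471) and with length and GC offsets (edgeR adjusted p = 0.0316). Vldlr, a lipoprotein receptor that ATF4 and PERK signalling can induce, had 4, 7 and 6 reads in HA-NUR77 and 10, 4 and 12 in GFP and was too low to be tested.

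**Figure D4:**
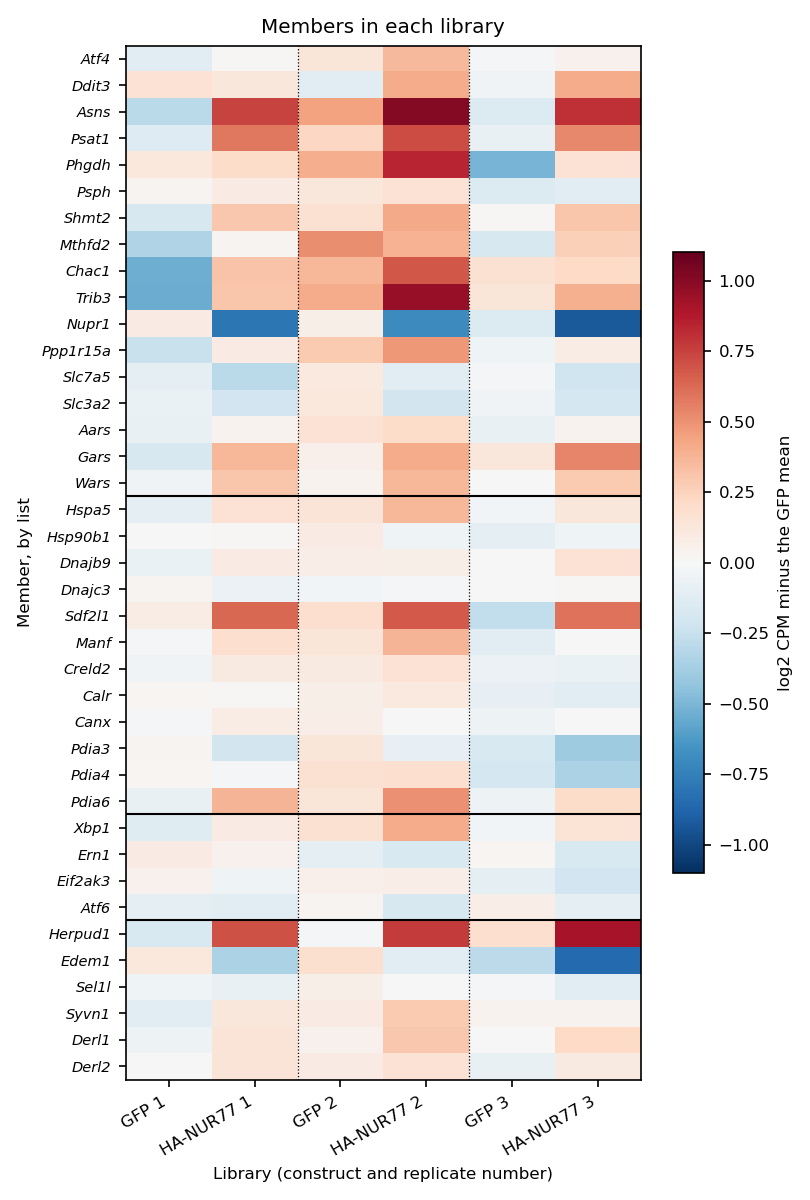
Log2 CPM of each tested member minus its GFP mean (colour) in the 6 libraries, ordered by replicate number with GFP beside HA-NUR77 (columns), the lists divided by black lines. Asns, Psat1, Shmt2, Chac1, Trib3, Gars, Wars, Sdf2l1, Pdia6 and Herpud1 are among the members red in every HA-NUR77 library, and Nupr1 is blue in each. Asns, Phgdh, Mthfd2, Chac1, Trib3 and Ppp1r15a are among those also red in GFP replicate 2.

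Levels in the ATF4 programme differed between replicate numbers as well as between constructs. On the log2 scale relative to the GFP mean, the median member of the list stood at 0.13, 0.41 and 0.22 for HA-NUR77 and at −0.13, 0.16 and −0.04 for GFP, by replicate number. Replicate 2 was thus the highest in both groups, and GFP replicate 2 lay above HA-NUR77 replicate 1. The list had 3 members higher without GFP replicate 1 and 6 without GFP replicate 2. Over all genes, 642 and 927 were higher in these fits, beside 1549 with all 6 libraries. The block raised the calls over all genes from 12.4% to 23.5% higher and from 13.2% to 24.6% lower. Over all 4 lists, edgeR called 13 members with the block that it did not call without it, 9 higher and 4 lower. Of these, Derl1 and Slc3a2 also passed in other fits without the block, as given with their values, and each of the 9 members called without the block was called the same way with it.

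Among ER chaperones, Sdf2l1 and Pdia6 were higher in HA-NUR77, while the most abundant ones, Calr, Pdia3, Hsp90b1 and Hspa5, did not pass without the block. All 12 chaperones and folding enzymes were tested: 2 rose and 0 fell by edgeR, 10 did not pass, and the median log2 fold change was 0.05. The share that rose was 16.7%, against 12.4% of all genes. None was lower at an unadjusted p under 0.05 (0 of 12), and DESeq2 and limma-voom also called 2 higher and 0 lower. With the block, 4 were higher and 1 lower, against 23.5% and 24.6% of all genes. Relative to the GFP mean, the median chaperone stood at 0.09, 0.13 and 0.00 on the log2 scale with HA-NUR77 and at −0.01, 0.12 and −0.08 with GFP, so the groups overlapped. Whether the list differs from the ATF4 programme was not tested.

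The ER stress element (ERSE) that ATF6 and XBP1 are known to use was searched as CCAAT followed by CCACG after 9 bases, on both strands. It was found in the windows of 9 members: Hspa5, Hsp90b1, Pdia6, Dnajc3, Creld2, Calr, Canx, Syvn1 and Derl3. Over all windows the share was 0.119%, and no member of the ATF4 programme held it. Of the 11 chaperones with a window, 7 held the element, and of these 1 rose and 6 did not pass. The stretches of 150 bases before the start are printed for the master chaperone, for its abundant partner and for the holder of the element that rose, with the element in capitals.
Hspa5 promoter, chr2:34771940-34772089, plus strand: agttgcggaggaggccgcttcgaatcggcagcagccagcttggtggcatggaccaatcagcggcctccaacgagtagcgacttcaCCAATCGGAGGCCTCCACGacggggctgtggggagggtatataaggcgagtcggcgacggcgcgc
Hsp90b1 promoter, chr10:86705445-86705594, minus strand: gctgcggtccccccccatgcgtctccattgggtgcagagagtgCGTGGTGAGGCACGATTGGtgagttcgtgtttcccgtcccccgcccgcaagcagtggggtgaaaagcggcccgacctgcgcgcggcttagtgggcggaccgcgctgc
Pdia6 promoter, chr12:17266439-17266588, plus strand: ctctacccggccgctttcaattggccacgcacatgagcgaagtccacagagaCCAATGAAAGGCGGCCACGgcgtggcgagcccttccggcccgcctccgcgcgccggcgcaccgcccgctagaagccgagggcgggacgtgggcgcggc
In Hspa5 the element spans positions −65 to −47 from the start, in Pdia6 −98 to −80, and in Hsp90b1 −107 to −89 on the opposite strand, with a further one at −212 to −194 that lies outside the printed stretch. The core of the XBP1 element UPRE, TGACGTGG, was in no member's window and in 0.676% of all windows.

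Hspa5 (chromosome 2, 34771970 to 34777547, plus strand), which encodes BiP, the main Hsp70 of the ER and the holder of the sensors, stood at 757, 871 and 739 CPM in the HA-NUR77 libraries and at 630, 745 and 661 CPM in those of GFP. GFP replicate 2 lay above HA-NUR77 replicate 3, so the groups overlapped. The log2 fold change was 0.22 (95% interval −0.02 to 0.46, edgeR adjusted p = 0.153), and 0.0076 with the block, the library of each number being higher in HA-NUR77 by 0.27, 0.23 and 0.16. Pdia6 (chromosome 12, 17266545 to 17284770, plus strand), a disulfide isomerase that also acts on PERK and IRE1, stood at 315, 344 and 279 CPM in the HA-NUR77 libraries and at 230, 267 and 234 CPM in those of GFP. Its groups did not overlap, and the rise was 1.28-fold (log2 fold change 0.36, SE 0.10, edgeR adjusted p = 0.036). It was not past the threshold when GFP replicate 1 or 3 or HA-NUR77 replicate 1 or 2 was left out, with adjusted p of 0.0837 to 0.128.

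Sdf2l1 (chromosome 16, 17130138 to 17132383, minus strand), which acts with BiP and its J-proteins to slow aggregation, stood at 12.1, 12.4 and 11.8 CPM in the HA-NUR77 libraries and at 8.24, 8.86 and 6.43 CPM in those of GFP, from 95 to 285 reads. Every HA-NUR77 library was above every GFP library, and the rise was 1.55-fold (log2 fold change 0.63, SE 0.13, edgeR adjusted p = 0.0151); without HA-NUR77 replicate 1 the adjusted p was 0.0552 at the same log2 fold change of 0.63. Leaving out that library left 0 chaperones called, and leaving out GFP replicate 1 or 3 or HA-NUR77 replicate 2 left 1. Manf, a secreted protein of the ER stress response, stood at 80, 91.3 and 69.9 CPM in HA-NUR77 against 69, 77.2 and 65 CPM in GFP. It overlapped between groups and passed only with the block (edgeR adjusted p = 0.231, 0.0179 with the block). Pdia3, the isomerase that works with the calnexin cycle, stood at 600, 645 and 524 CPM in HA-NUR77 against 702, 757 and 614 CPM in GFP. It was lower by 0.23 on the log2 scale in each of the 3 pairs, and passed only with the block (adjusted p = 0.17, 0.00474 with the block).

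The other 7 chaperones passed in neither fit. Calr, the lectin chaperone calreticulin, was the most abundant member per length, with 292 CPM per kilobase of exon in GFP, before Pdia3 at 220, Hsp90b1 at 177, Hspa5 at 160.0 and Canx at 146. Calr stood at 841 ± 66.6 against 840 ± 45.4 CPM (SD, n = 3), with a 95% interval of 0.863 to 1.16 for the fold change; a pseudogene, Calr-ps, is counted apart, and the split of reads with it is uncertain. Hsp90b1, the ER form of HSP90 (GRP94), stood at 701 ± 18.2 against 714 ± 45.2 CPM (SD, n = 3), with an interval of 0.861 to 1.12. Canx, the membrane-bound lectin chaperone calnexin, stood at 697 ± 22.5 against 685 ± 30.9 CPM (SD, n = 3), with an interval of 0.899 to 1.15. Dnajc3 and Dnajb9, J-proteins that serve BiP, had log2 fold changes of −0.02 and 0.11, Creld2, an ER stress-induced folding factor, 0.07 and the isomerase Pdia4 −0.05, with edgeR adjusted p from 0.298 to 0.815.

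The 4 genes of the sensors and of XBP1 were not called without the block. By edgeR 0 were higher and 0 lower, beside 12.4% and 13.2% of all genes, so a count of 0 in 4 genes says little. None had an unadjusted p under 0.05 (0 of 4), and DESeq2 and limma-voom called 0. With the block 1 was higher, Xbp1, and 0 lower, where 23.5% and 24.6% of all genes were. Eif2ak3 (chromosome 6, 70844515 to 70905245, plus strand), which encodes PERK, stood at 29.6, 32.2 and 26.4 CPM in the HA-NUR77 libraries and at 31.5, 31.9 and 28.5 CPM in those of GFP. Ern1 (chromosome 11, 106394650 to 106487852, minus strand), which encodes IRE1, stood at 66.3, 57 and 57 CPM in the HA-NUR77 libraries and at 68.2, 59.3 and 64.9 CPM in those of GFP. Both overlapped between the groups. Atf6 (chromosome 1, 170704674 to 170867771, minus strand) stood at 221, 211 and 222 CPM in the HA-NUR77 libraries and at 222, 244 and 252 CPM in those of GFP. Here the GFP libraries were all above the highest HA-NUR77 library, by less than 1 CPM at the nearest. The log2 fold changes were −0.06, −0.09 and −0.14, with edgeR adjusted p of 0.691, 0.459 and 0.203, and 0.51, 0.22 and 0.0766 with the block.

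Xbp1 (chromosome 11, 5520659 to 5525893, plus strand) stood at 137, 171 and 143 CPM in the HA-NUR77 libraries and at 117, 144 and 126 CPM in those of GFP. The groups overlapped through GFP replicate 2, while each number was higher in HA-NUR77, by 0.22, 0.24 and 0.18 on the log2 scale. Without the block its log2 fold change was 0.22 (95% interval −0.04 to 0.48, edgeR adjusted p = 0.182). With the block the adjusted p was 0.00491. The counts add the spliced and unspliced forms of its mRNA.

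Among the genes of ER-associated degradation, Herpud1 rose and the 5 others tested did not pass. Herpud1, a ubiquitin-like protein of the ER membrane that helps assemble the HRD1 complex, is induced through both ATF4 and ATF6 in other cells. Its promoter holds a match to the ATF4 element, on the opposite strand at −113 to −105, and the only match among the members to ERSE-II, searched as ATTGG and CCACG with 1 base between them, at −52 to −42. ERSE-II was in 0.0365% of all windows. Both are in capitals in its 150 bases before the start.
Herpud1 promoter, chr8:94386279-94386428, plus strand: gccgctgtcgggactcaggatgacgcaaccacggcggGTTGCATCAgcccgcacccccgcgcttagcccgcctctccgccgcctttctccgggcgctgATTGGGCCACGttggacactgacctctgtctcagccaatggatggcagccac
Herpud1 (chromosome 8, 94386438 to 94395377, plus strand) stood at 164, 172 and 189 CPM in the HA-NUR77 libraries and at 89.9, 99.6 and 114 CPM in those of GFP. The lowest HA-NUR77 library lay well above the highest GFP library. The rise was 1.73-fold (log2 fold change 0.79, SE 0.10, edgeR adjusted p = 0.00228), with differences of 0.87, 0.78 and 0.73 in the 3 pairs. It passed in every fit without 1 library, with edgeR adjusted p of 0.00243 to 0.0122, and over all alternatives from 1.33e-09 to 0.0122.

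Of the 6 genes of the pathway tested, Herpud1 included, 1 rose and 0 fell by edgeR. The share that rose was 16.7%, against 12.4% of all genes. None was lower at an unadjusted p under 0.05 (0 of 6), and DESeq2 called 2 higher and limma-voom 1. With the block 2 were higher and 1 lower, against 23.5% and 24.6% of all genes. Derl1, a channel-forming membrane protein, stood at 205, 228 and 217 CPM in HA-NUR77 against 179, 192 and 187 CPM in GFP. Its groups did not overlap, and it did not pass by edgeR without the block (log2 fold change 0.22, edgeR adjusted p = 0.0548). It was past the threshold with the block (0.00444), by DESeq2 (0.0309), with library totals as the only scaling (0.0451) and with upper-quartile factors (0.0441). Edem1, which marks misfolded glycoproteins for disposal, stood at 52.5, 61.6 and 36.9 CPM in HA-NUR77 against 72.4, 75.7 and 54.8 CPM in GFP. Replicate 3 was the lowest in each group, the groups overlapped, and within numbers HA-NUR77 was lower by 0.46, 0.30 and 0.57 (log2 fold change −0.42, edgeR adjusted p = 0.149, 0.000214 with the block). Syvn1, the HRD1 ubiquitin ligase, stood at 61.3 ± 5.45 against 55.1 ± 4.06 CPM (SD, n = 3), its cofactor Sel1l at 171 ± 8.15 against 179 ± 7.05 CPM (SD, n = 3) and Derl2 at 57.6 ± 1.22 against 52.6 ± 3.16 CPM (SD, n = 3), and these passed in neither fit. Derl3 had 0 reads in each library, which allows up to 0.131 to 0.216 CPM per library (3 counts of the total, counting error only).

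Over all 39 tested members, 8 rose and 1 fell, and 14 had no overlap between the groups, 10 higher and 4 lower in HA-NUR77; over all genes tested the share without overlap was 45.6%. As shares of the members tested, 20.5% rose and 2.56% fell, beside 12.4% and 13.2% over all genes, and the median log2 fold change was 0.14. With the block 17 were higher and 5 lower, where 23.5% and 24.6% of all genes were. Of the 9 called, 5 passed in every fit without 1 library: Psat1, Gars, Wars, Nupr1 and Herpud1.

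A further 101 genes of the response that are not among the 41, sorted into 7 lists, gave 14 higher and 7 lower of the 99 tested (14.1% and 7.07%, beside 12.4% and 13.2% of all genes). Their median log2 fold change was 0.08, and with the block 34 were higher and 22 lower, where 23.5% and 24.6% of all genes were. The largest change was in Atf3, a stress-induced repressor that CHOP and ATF4 can activate, with 7.14, 10.8 and 7.97 CPM in HA-NUR77 and 1.48, 3.36 and 2.17 CPM in GFP. Its groups did not overlap, and the rise was 3.73-fold (95% interval 2.31 to 6.03, edgeR adjusted p = 0.00512). Of the 7 transcription factors in its list, 1 other was called, the related Jdp2, which fell (log2 fold change −0.37, adjusted p = 0.00836).

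Of 22 further ATF4 targets tested, 3 rose (13.6%) and 2 fell (9.09%), beside 12.4% and 13.2% of all genes. Gpt2, mitochondrial alanine aminotransferase, had 145, 127 and 146 CPM in HA-NUR77 and 78.8, 72.8 and 84.6 CPM in GFP, a rise of 1.77-fold (edgeR adjusted p = 0.00101). Mthfd1l, of mitochondrial formate production, had 25, 25.3 and 21.2 CPM in HA-NUR77 and 14.2, 14.2 and 12 CPM in GFP, also 1.77-fold (adjusted p = 0.00246), and the glycine transporter Slc6a9 rose 1.64-fold (adjusted p = 0.0122, 0.0564 without GFP replicate 1). In each of the 3 the groups did not overlap. Slc1a4, a transporter of serine and alanine, fell 1.67-fold (adjusted p = 0.00836), and so did Stc2, stanniocalcin 2, by 1.75-fold (adjusted p = 0.0414), which passed only without HA-NUR77 replicate 2 or GFP replicate 1 among the fits without 1 library (up to 0.125 in the others) and was named after its values were seen.

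Of the 17 other tRNA synthetases, 4 rose, 1 fell and 12 did not pass, which makes 23.5% higher and 5.88% lower beside 12.4% and 13.2% of all genes. The log2 fold change was positive for 16 of the 17 (median 0.17) and for 50.9% of all genes tested. Kars rose 1.35-fold, Qars 1.28-fold, Farsb 1.24-fold and Mars, named after its values were seen, 1.27-fold, with edgeR adjusted p of 0.00446, 0.0088, 0.0269 and 0.0354. Eprs, the bifunctional glutamyl-prolyl synthetase, fell (log2 fold change −0.28, adjusted p = 0.0252), but with correction for transcript length and GC content the change was 0.00 (adjusted p = 0.988). Of the 6 fits without 1 library, Farsb and Mars passed only in that without GFP replicate 2 and Eprs only in that without GFP replicate 3, with adjusted p in the others up to 0.0904, 0.0809 and 0.0872. Upstream of ATF4, 2 of 10 genes rose and 1 fell: the eIF2B subunits Eif2b5 (1.28-fold) and Eif2b2 (1.3-fold) rose, and Eif2ak4, the eIF2 kinase GCN2 that senses uncharged tRNA, fell 1.37-fold from 26.9 ± 0.659 to 19.5 ± 1.73 CPM (SD, n = 3). Their edgeR adjusted p was 0.00751, 0.0163 and 0.0104, and Eif2b2 did not pass when GFP replicate 1 (0.0575), GFP replicate 2 (0.0534) or HA-NUR77 replicate 1 (0.0606) was left out.

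**Figure D5:**
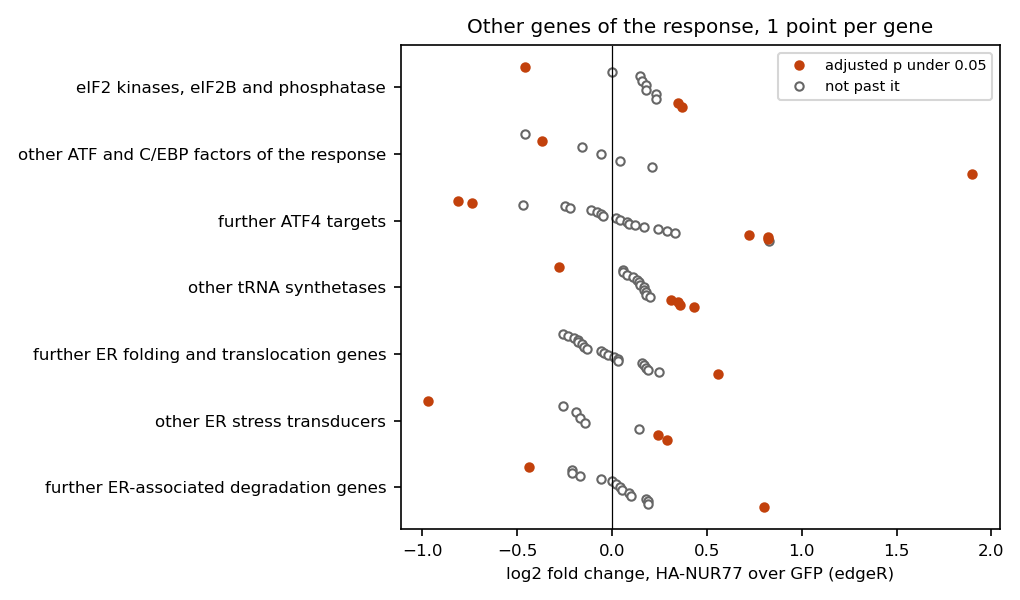
Log2 fold change (x axis, HA-NUR77 over GFP) of the 99 tested genes of the response outside the 41, 1 point per gene in 7 lists, filled where the adjusted p is under 0.05. Atf3 stands alone at 1.90, the tRNA synthetases lie right of 0 apart from Eprs, and the genes of ER folding and translocation lie on both sides of 0.

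On the ER side, 1 of 20 further folding and translocation genes rose (5%) and 0 fell by edgeR, beside 12.4% and 13.2% of all genes. At an unadjusted p under 0.05, 4 were higher and 2 lower, and DESeq2 and limma-voom called 1 higher and 0 lower. With the block 4 were higher and 7 lower, where 23.5% and 24.6% of all genes were. The gene that rose was Ero1lb, an oxidase that renews disulfide isomerases (1.48-fold, adjusted p = 0.0181, but 0.0728 and 0.0541 when GFP replicate 1 or 2 was left out and 0.073 when HA-NUR77 replicate 1 was). Among 8 other ER stress transducers, Creb3l1, a membrane-bound transcription factor of secretory and matrix-producing cells, had 76.9, 106 and 57 CPM in HA-NUR77 and 139, 185 and 147 CPM in GFP. It fell 1.95-fold (adjusted p = 0.0183, but 0.0517 when GFP replicate 2 was left out, 0.0664 when HA-NUR77 replicate 1 was and 0.0723 with no filter on low counts), while its relative Creb3 rose 1.22-fold and the IRE1 adaptor Traf2 1.18-fold (adjusted p = 0.0164 and 0.032). Creb3 did not pass when GFP replicate 1 (0.0605) or HA-NUR77 replicate 1 (0.0551) was left out, and Traf2 passed in 0 of the 6 fits without 1 library (0.0628 to 0.106). Of 15 further genes of ER-associated degradation, Ube2g2, a ubiquitin-conjugating enzyme, had 238, 256 and 269 CPM in HA-NUR77 and 122, 146 and 169 CPM in GFP and rose 1.74-fold (adjusted p = 0.004), and Faf2, which recruits the ATPase VCP, fell 1.35-fold (adjusted p = 0.019, but 0.0757 and 0.0579 when GFP replicate 1 or 2 was left out and 0.0592 when HA-NUR77 replicate 1 was). The other 13 did not pass. Of the 8 transducers 25% rose and 12.5% fell, and of the 15 degradation genes 6.67% rose and 6.67% fell. Over all genes the shares were 12.4% and 13.2%.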

How the data were processed

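RNA-seq counts of 6 libraries were used, 3 per construct. Per the labels' protocols, each replicate was 1 dish, and poly(A) RNA was made into stranded libraries. The deposited values are raw counts of reads per Ensembl gene, and the submitters' processing notes name TopHat2 2.1, HTSeq, DESeq2 and build mm10; the annotation, the strand setting and the role of DESeq2 are not given in the sources used here. Symbols, positions and exon lengths came from GENCODE M21 (GRCm38), which matched 22888 of 23154 IDs. Ddit3 names 2 GENCODE genes, of which 1 is in the files. Promoter windows are RefSeq's (GRCm38.p6), with 36 of 41 members matched; Slc7a5, Wars, Manf, Atf6 and Derl1 were not.

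Genes kept by filterByExpr (minimum count 10) were tested by robust quasi-likelihood in edgeR 4.0.16 under R 4.3.3, after TMM scaling and with construct as the sole term, with Benjamini-Hochberg adjustment over 12509 genes and a threshold of 0.05. Each SE was derived as the absolute log2 fold change divided by the square root of the quasi-likelihood F statistic. Intervals of 95% use this SE. DESeq2 1.42.0 and limma-voom (limma 3.58.1) were alternatives, as were other scalings, no filter, loess offsets for exon length and GC content, and leaving out each library. CPM are counts scaled by total and TMM factor, as mean ± SD of 3. Depth limits low genes, and p-values measure the spread between dishes of 1 line per construct.

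Both groups carry replicate numbers 1 to 3. Deviations of same-numbered libraries from their group means correlated over genes at 0.25, 0.55 and 0.47, each over the 0.1 set for pairing, and no label ties the numbers to a shared day or batch; blocked values are given where they change a call. No 2 libraries of a group agreed within sampling noise (smallest chi-square per degree of freedom 11.5).

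The members and lists were chosen with earlier results of these data known. Named genes were all members and, of the other lists, up to 4 called genes each with the smallest adjusted p.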

Additional observations from a re-analysis of the deposited data

How the results depend on the processing

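Adding a replicate block raised the calls over all genes from 1549 to 2942 higher and from 1655 to 3071 lower. Members higher and lower with it were 10 and 3 in the ATF4 programme, 4 and 1 among chaperones, 1 higher among the sensors and Xbp1, and 2 and 1 in ER-associated degradation, with 34 and 22 among the other genes of the response; the block changed no called member. With length and GC offsets together with the block, all genes gave 3336 higher and 2642 lower, the ATF4 programme 8 and 3, chaperones 5 and 2, the sensors and Xbp1 1 higher, ER-associated degradation 4 and 1, and the other genes 39 and 16. In that fit Derl2, Syvn1, Aars and Dnajb9 were higher (edgeR adjusted p = 0.00261, 0.00827, 0.00347 and 0.0452) and Pdia4 lower (0.0418). None of these passed in the main fit or with the block alone. Ddit3, Chac1 and Ppp1r15a, called with the block alone, did not pass in it. The offsets alone gave 2 lower in the ATF4 programme, as did DESeq2, and ER-associated degradation had 2 higher with upper-quartile factors, with DESeq2 or scaled by library totals alone. Eprs, lower in the main test, stood at 0.00 with the offsets (adjusted p = 0.988) and at 0.00 with offsets and block (0.948); the cause was not tested.

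Leaving out 1 library in turn gave 642 to 1489 genes higher and 850 to 1572 lower. Higher members numbered 3 to 6 in the ATF4 programme, 0 to 2 among chaperones and 1 in ER-associated degradation, and 1 was lower in the ATF4 programme in each. The other genes of the response gave 7 to 14 higher and 3 to 8 lower. Over all genes the count of higher calls fell past 1.5 times to 642 without GFP replicate 1, 927 without GFP replicate 2 and 672 when HA-NUR77 replicate 1 was left out, and that of lower calls to 850 and 903 without the replicates numbered 1 of GFP and HA-NUR77. In the 150 bases before the start alone, 5 members held the ATF4 element in place of 8, since fewer bases were searched. ERSE was held there by 7 members in place of 9. Over all windows the shares in these 150 bases were 2.22% for the ATF4 element and 0.0822% for ERSE. Genes of few reads, such as Trib3, are limited by depth.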
